A study of Homo sapiens with 12 samples.

Results

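Messenger RNA levels were compared between THP-1 cells given 3 drugs during induced pyroptosis and THP-1 cells in which pyroptosis was induced with no drug. THP-1 is an established human cell line from a monocytic leukaemia. The drug-treated cultures, called CEL, received lipopolysaccharide (LPS) and ATP together with cyclosporin A, eltrombopag and luspatercept. The cultures set against them, called LPS, received lipopolysaccharide and ATP with no drug. The comparison takes 6 of the 12 libraries of the series, 3 CEL and 3 LPS, and all 14065 of 78932 genes that passed a filter on low counts. The other 6 libraries are given beside them where they help: CE, with lipopolysaccharide, ATP, cyclosporin A and eltrombopag but no luspatercept, and NC, the control cultures, for which the labels name no treatment. Doses and durations are missing from the sources used here, and all groups come from 1 cell line. No culture received luspatercept alone, so the shares of the 3 drugs in a difference between CEL and LPS cannot be told apart.

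Pyroptosis is a lytic form of cell death in which an inflammasome activates caspase-1, which cuts the interleukin precursors IL1B and IL18 and the pore protein gasdermin D. Lipopolysaccharide signals through TLR4 and raises the amounts of inflammasome parts and IL1B, and extracellular ATP opens the P2RX7 channel and triggers NLRP3. Cyclosporin A binds cyclophilins and blocks calcineurin, the phosphatase that activates NFAT factors. Eltrombopag activates the thrombopoietin receptor and also binds iron. Luspatercept is a fusion of the outer part of an activin receptor with an antibody Fc part and traps ligands of the TGF-beta family.

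The libraries held 19865675 to 23183429 counts in CEL and 20168897 to 20586858 in LPS, and 23592 to 26113 genes were detected in CEL and 21775 to 24125 in LPS. Some of the markers taken as defining THP-1 cells are given here, and not all of them held their level. CD33, a myeloid surface receptor, was at 70.4 ± 2.25 CPM in CEL and 56.7 ± 1.27 CPM in LPS. CSF1R, the receptor for macrophage colony-stimulating factor, was at 44.4 ± 16.5 CPM in CEL and 46.5 ± 12.8 CPM in LPS. Lysozyme (LYZ) was at 20.3 ± 1.30 CPM in CEL and 142 ± 7.66 CPM in LPS. CD14, another of these markers, was lower in CEL (log2 change -4.03) and is described below, as are ITGAM and SPI1. Levels here are CPM (counts relative to the library size, scaled by the trimmed mean of M values, TMM) with the SD over 3 libraries after the mean, and they are compared between groups, not between genes. LPS 1 stood apart from LPS 2 and LPS 3, with 24511.8 CPM of named ribosomal RNA against 11040.3 and 10747.8 CPM, and CEL lay at 15310.9 to 16704.2 CPM. In a principal component analysis of the 6 libraries the first component held 71.6% of the variance, with CEL at -59.7 to -53.2 and LPS at 51.2 to 59.5. On the second component, with 10.5%, LPS 3 lay at 29.6, away from LPS 1 at -22.3 and LPS 2 at -9.79. CEL ran there from -26.4 in CEL 3 to 24.8 in CEL 1.

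CEL differed from LPS in 7867 of the 14065 genes tested, 55.9%, at an adjusted p under 0.05 (edgeR's quasi-likelihood F-test, Benjamini and Hochberg). Of these, 4039 genes (28.7%) were higher and 3828 (27.2%) lower. Large changes leaned downward in this test, with 1226 genes (8.72%) higher by at least 2-fold and 1715 (12.2%) lower by at least 2-fold. By at least 8-fold, 62 (0.441%) were higher and 198 (1.41%) lower. The median log2 change over all genes was -0.03, and the middle 50% of genes lay between -0.63 and 0.50. Without LPS 1, 3752 genes were higher and 3476 lower, and 188 of 189 named genes kept their call, the exception being EPOR. Upper quartile scaling moved the median of all genes by -0.135 on the log2 scale and turned the split to 3294 higher and 4590 lower. Limma on log2(TPM + 1) gave 3048 higher and 1936 lower. With limma the lean of changes of at least 2-fold turned upward, to 954 higher and 679 lower on log2(TPM + 1). On log2(TPM + 0.1) the split was 1429 higher and 1235 lower. A gene is called higher, lower or changed below only where its adjusted p was under 0.05. Each change is a log2 value ± its approximate standard error. Counts of called list members below stand beside the 28.7% of all genes higher and 27.2% lower.

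**Figure D1:**
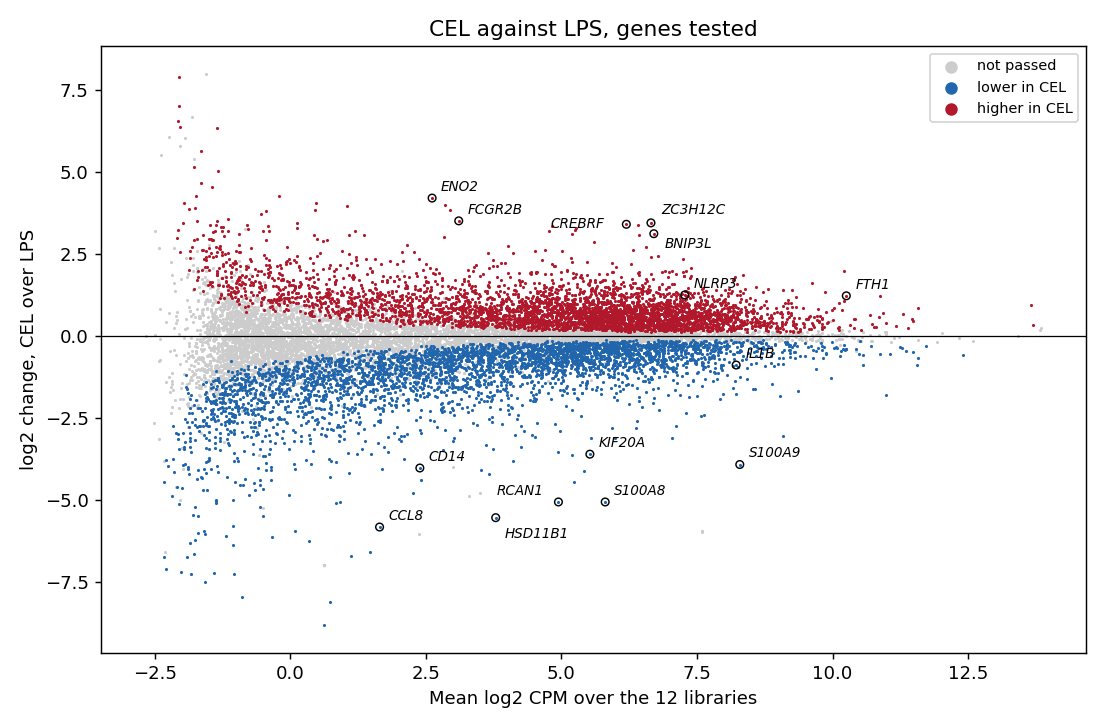
Log2 change of each tested gene in CEL over LPS (vertical axis) against its mean log2 CPM over the 12 libraries (horizontal axis). Red points are higher in CEL, blue points lower and grey points did not pass; circled genes are described in the text, from CCL8 at -5.83 to ENO2 at 4.21.

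Each of 4 genes stands here for a group of genes: KIF20A for cell division, ENO2 for glycolysis, CD14 for the monocyte surface and CCL8 for chemokine output. Their promoter windows, 250 bases before and 50 after the RefSeq start on GRCh38.p14, are shown as a description only. KIF20A is on the plus strand at chr5:138178862-138179161, ENO2 on the plus strand at chr12:6914330-6914629, CD14 on the minus strand at chr5:140633126-140633425 and CCL8 on the plus strand at chr17:34319185-34319484. Capitals mark the CCAAT box in KIF20A, read there on the other strand as ATTGG, the core ACGTG of the hypoxia response element in ENO2, and the AP-1 motif TGANTCA in CD14.
KIF20A: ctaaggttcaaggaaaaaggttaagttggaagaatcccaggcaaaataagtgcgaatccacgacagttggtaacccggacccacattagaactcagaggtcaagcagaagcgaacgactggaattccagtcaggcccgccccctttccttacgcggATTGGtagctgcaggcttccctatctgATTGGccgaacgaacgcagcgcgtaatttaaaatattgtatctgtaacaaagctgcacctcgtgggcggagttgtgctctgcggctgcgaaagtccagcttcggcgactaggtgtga
ENO2: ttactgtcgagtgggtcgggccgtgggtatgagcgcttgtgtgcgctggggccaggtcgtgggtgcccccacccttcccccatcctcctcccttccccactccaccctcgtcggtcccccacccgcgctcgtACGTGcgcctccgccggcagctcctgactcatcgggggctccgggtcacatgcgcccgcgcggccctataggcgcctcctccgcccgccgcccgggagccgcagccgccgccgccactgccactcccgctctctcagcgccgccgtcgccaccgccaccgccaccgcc
CD14: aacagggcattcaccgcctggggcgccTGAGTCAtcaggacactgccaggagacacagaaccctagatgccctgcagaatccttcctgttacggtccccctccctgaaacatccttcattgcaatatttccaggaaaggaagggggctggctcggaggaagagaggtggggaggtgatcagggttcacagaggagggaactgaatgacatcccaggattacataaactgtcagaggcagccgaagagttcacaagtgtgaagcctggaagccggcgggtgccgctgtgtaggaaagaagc
CCL8: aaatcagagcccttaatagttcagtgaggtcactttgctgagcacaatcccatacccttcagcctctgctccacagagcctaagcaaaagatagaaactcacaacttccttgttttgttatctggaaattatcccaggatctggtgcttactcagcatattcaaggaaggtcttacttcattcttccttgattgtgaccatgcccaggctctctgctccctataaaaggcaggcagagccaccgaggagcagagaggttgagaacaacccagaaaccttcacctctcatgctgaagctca

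The motifs were searched on both strands, and a match describes letters only, not binding. The KIF20A window held 2 CCAAT boxes and no TTTGAA, the cell cycle homology region. CCAAT was found in 34.6% of all 35116 RefSeq promoter windows and in 32 of the 42 windows of mitosis genes (76.2%), and TTTGAA in 15.2% of all windows and 24 of those 42 (57.1%). Among genes lower by at least 2-fold the shares were 39.1% for CCAAT and 15.8% for TTTGAA, against 35.4% and 11.6% of tested genes. ACGTG was found in 21.4% of all windows and in 29 of 69 windows of glycolysis and hypoxia genes (42.0%). It was in 22.7% of windows of genes higher by at least 2-fold, 24.2% of those lower by at least 2-fold and 25.5% of those tested. The lists were chosen by function, so their shares do not describe the genes that changed. TGANTCA was found in 7.71% of all windows, 5.28% of those of tested genes, 8.37% of those higher by at least 2-fold and 5.39% of those lower by at least 2-fold. Besides CD14, the ENO2 window held 1 TGANTCA, which is not in capitals above. The CCL8 window held none of the 7 motifs searched, which beside these were GGGCGG, TGATGNAA and the interferon-stimulated response element (ISRE).

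KIF20A, a kinesin needed for the last step of cell division, had 8.74, 9.87 and 7.90 CPM in the CEL libraries, against 108, 109 and 106 CPM in the LPS libraries. It was 12.2-fold lower in CEL (log2 change -3.61 ± 0.08, adjusted p = 1.06e-10), with no overlap between the groups, as was so for 65.5% of all genes tested. Its level in CE lay between, at 41.8, 36.7 and 40.5 CPM, and NC was near LPS at 123, 114 and 117 CPM. ENO2, an enolase isoform of glycolysis, went the other way with 30.6, 33.0 and 32.0 CPM in the CEL libraries, against 1.72, 1.51 and 1.91 CPM in the LPS libraries (log2 change 4.21 ± 0.11, adjusted p = 2.92e-10). CE reached 18.8, 19.1 and 18.6 CPM and NC 1.25, 1.005 and 1.37 CPM, so all 3 CEL libraries were above every other library.

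CD14, the co-receptor that hands lipopolysaccharide to TLR4, had 2.25, 3.06 and 2.79 CPM in the CEL libraries, against 41.9, 42.5 and 47.7 CPM in the LPS libraries (log2 change -4.03 ± 0.17, adjusted p = 7.53e-09). CE had 7.43, 6.06 and 5.83 CPM and NC 1.12, 0.639 and 0.856 CPM. CD14 in CEL was thus far below LPS and still above NC. CCL8, a chemokine that attracts monocytes, had 1.56, 1.55 and 1.34 CPM in the CEL libraries, against 90.5, 90.2 and 74.4 CPM in the LPS libraries and was 56.9-fold lower in CEL (log2 change -5.83 ± 0.21, adjusted p = 2.02e-09). It was at 5.22, 4.14 and 5.73 CPM in CE and 0, 0.0457 and 0.114 CPM in NC. In bulk samples such as these, fewer cells of a kind and less RNA per cell cannot be told apart.

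**Figure D2:**
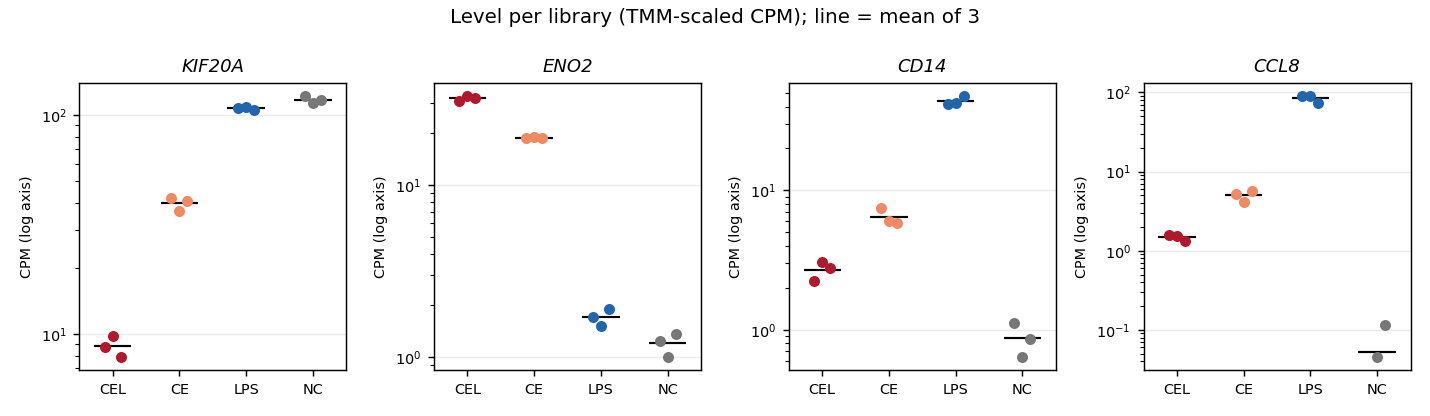
Level of KIF20A, ENO2, CD14 and CCL8 in each of the 12 libraries (CPM, log axis), with the mean of 3 libraries as a line. CEL libraries lie below LPS libraries for KIF20A, CD14 and CCL8 and above them for ENO2; 1 NC library at 0 CPM for CCL8 cannot be drawn on the log axis.

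Genes of mitosis were lower in CEL almost throughout. Of 38 tested members of a mitosis and G2 list, 0 were higher, 36 lower and 2 did not pass, with a median log2 change of -1.19 beside -0.03 over all genes, and 23 members were lower by at least 2-fold. CCNB1, the cyclin that with CDK1 starts mitosis, had 38.4, 41.6 and 43.8 CPM in the CEL libraries, against 281, 281 and 261 CPM in the LPS libraries (-2.73 ± 0.08). HMMR, a spindle and hyaluronan-binding protein, had 30.6, 31.0 and 33.7 CPM in the CEL libraries, against 287, 289 and 250.3 CPM in the LPS libraries (-3.12 ± 0.08). ASPM, which organises spindle poles, had 58.8, 59.1 and 66.2 CPM in the CEL libraries, against 336, 344 and 323 CPM in the LPS libraries (-2.45 ± 0.06). The groups did not overlap for any of these, as was so for 65.5% of all genes tested.

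The anaphase activator CDC20 was at 67.0 ± 3.45 CPM in CEL and 356 ± 22.8 CPM in LPS (-2.41 ± 0.06). The spindle checkpoint kinase BUB1B was at 63.5 ± 3.53 CPM in CEL and 199 ± 6.12 CPM in LPS (-1.65 ± 0.05) and the centrosome kinase AURKA at 71.3 ± 4.18 CPM in CEL and 261 ± 7.33 CPM in LPS (-1.87 ± 0.07). Topoisomerase TOP2A, which untangles chromosomes, was at 547 ± 33.6 CPM in CEL and 1330.5 ± 46.9 CPM in LPS (-1.28 ± 0.07), and UBE2C, a ubiquitin-conjugating enzyme of mitotic exit, was also lower (-1.40 ± 0.09). FOXM1, a factor that drives mitosis genes, was at 12.8 ± 2.23 CPM in CEL and 17.6 ± 2.46 CPM in LPS and did not pass (log2 change -0.46 ± 0.24, adjusted p = 0.125), and the kinesin KIF18B did not either (log2 change -1.08 ± 0.77, adjusted p = 0.260). Both were chosen after their values were seen, and they passed as lower in 3 and 2 of 15 alternatives.

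DNA replication genes were lower in part. Of 37 tested members 3 were higher, 18 lower and 16 did not pass, with a median of -0.49. The 3 that were higher were named after their values were seen: MCM3, part of the helicase (0.17), PCNA, the sliding clamp (0.21), and RFC2, part of the clamp loader (0.39). Of 15 alternatives, 11 ended the call of MCM3, 12 that of PCNA and 3 that of RFC2, and the number higher was 1 without CEL 2 and 1 without LPS 2. The ribonucleotide reductase subunit RRM2 had 66.3, 66.2 and 73.1 CPM in the CEL libraries, against 242, 242 and 228 CPM in the LPS libraries (-1.79 ± 0.06). POLE2, a DNA polymerase epsilon subunit, had 7.70, 8.17 and 8.65 CPM in the CEL libraries, against 29.5, 28.8 and 26.5 CPM in the LPS libraries (-1.79 ± 0.09), and cyclin E1 (CCNE1), which drives entry into S phase, had 9.87, 9.62 and 8.33 CPM in the CEL libraries, against 27.2, 26.2 and 26.6 CPM in the LPS libraries (-1.52 ± 0.08). Neither group overlapped the other for these 3 genes, as was so for 65.5% of all genes tested. The licensing factor CDC6 was at 55.4 ± 2.81 CPM in CEL and 102 ± 2.07 CPM in LPS (-0.89 ± 0.06), while the cell cycle inhibitor CDKN1A, chosen after its values were seen, was at 37.0 ± 12.97 CPM in CEL and 32.3 ± 6.31 CPM in LPS and did not pass (adjusted p = 0.788).

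Genes of glycolysis and of the response to low oxygen were higher in CEL. Of 40 tested members 29 were higher, 2 lower and 9 did not pass, with a median of 0.95, and 19 were higher by at least 2-fold. Among glycolytic enzymes ALDOC, an aldolase, had 116, 128 and 129 CPM in the CEL libraries, against 13.2, 12.4 and 11.9 CPM in the LPS libraries (log2 change 3.31 ± 0.08, adjusted p = 1.43e-10). GPI, which turns glucose-6-phosphate into fructose-6-phosphate, had 259.8, 260.1 and 257 CPM in the CEL libraries, against 124, 121 and 136 CPM in the LPS libraries (1.03 ± 0.05). Highly counted enzymes chosen after their values were seen were higher too, with LDHA, which makes lactate, at 3117 ± 155 CPM in CEL and 1343 ± 41.3 CPM in LPS (1.21 ± 0.08) and PGK1 at 1725 ± 85.3 CPM in CEL and 861 ± 22.1 CPM in LPS (1.002 ± 0.07). The 2 lower members, named in the same way, were the hexokinase HK1 (-0.69 ± 0.08) and the phosphofructokinase PFKM (-0.47 ± 0.13), whose call was lost in 3 of 15 alternatives, while the hexokinase HK2 was higher (1.30 ± 0.18).

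Of 17 tested genes of oxygen sensing and hypoxia targets 14 were higher and 0 lower. BNIP3L, a mitophagy receptor, had 337, 352 and 369.8 CPM in the CEL libraries, against 42.3, 42.3 and 36.9 CPM in the LPS libraries (log2 change 3.12 ± 0.09, adjusted p = 3.74e-10). BHLHE40, a transcriptional repressor, had 223, 217 and 224 CPM in the CEL libraries, against 29.9, 30.9 and 30.9 CPM in the LPS libraries (2.86 ± 0.05). KDM3A, an oxygen-dependent histone demethylase, had 270.3, 283 and 302 CPM in the CEL libraries, against 69.3, 75.04 and 69.8 CPM in the LPS libraries (2.00 ± 0.05), and PDK1, which holds pyruvate out of mitochondria, was at 43.8 ± 2.39 CPM in CEL and 25.1 ± 0.895 CPM in LPS (0.80 ± 0.06). The transcript of HIF1A, the oxygen-regulated factor itself, was at 424 ± 32.7 CPM in CEL and 314 ± 18.4 CPM in LPS (0.43 ± 0.07), and VEGFA at 22.4 ± 6.87 CPM in CEL and 19.1 ± 5.91 CPM in LPS did not pass (adjusted p = 0.751). Both were chosen after their values were seen.

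A second group that rose was that of FOXO targets and nutrient-response genes, with 21 of 26 tested members higher, 2 lower and 3 not passed, and the highest median of the lists described here, 1.48. CREBRF, a regulator of stress and nutrient responses, had 280.1, 289 and 327 CPM in the CEL libraries, against 29.5, 28.7 and 26.1 CPM in the LPS libraries (log2 change 3.41 ± 0.07, adjusted p = 6.39e-11). KLHL24, a substrate adaptor for a ubiquitin ligase, had 120.3, 119.6 and 126 CPM in the CEL libraries, against 12.3, 14.1 and 12.1 CPM in the LPS libraries (3.25 ± 0.06). TSC22D3, known as a glucocorticoid-induced leucine zipper gene, had 109, 120.2 and 122 CPM in the CEL libraries, against 13.4, 13.01 and 14.1 CPM in the LPS libraries (3.12 ± 0.09). All 3 CEL libraries were several times above all LPS libraries for these genes, and NC was also below CEL, with 14.1 ± 0.542, 13.9 ± 0.140 and 16.8 ± 0.938 CPM. The 2 lower members, CITED2 (-1.61 ± 0.21) and the antiproliferative gene BTG2 (-1.64 ± 0.13), were named after their values were seen.

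Monocyte and macrophage markers moved unequally, and most of the secreted and granule proteins among them fell. Of 39 tested markers 5 were higher, 18 lower and 16 did not pass, with a median of -0.87; among 10 secreted and granule proteins 8 were lower and 0 higher, with a median of -2.92. S100A8 and S100A9 together form calprotectin, a metal-binding alarm protein. S100A8 had 14.1, 14.2 and 14.2 CPM in the CEL libraries, against 479, 492 and 454 CPM in the LPS libraries (log2 change -5.07 ± 0.07, adjusted p = 3.69e-12). S100A9 had 109, 119 and 118 CPM in the CEL libraries, against 1788, 1803 and 1672 CPM in the LPS libraries (log2 change -3.92 ± 0.07, adjusted p = 3.15e-11), and NC lay at 241, 233 and 237 CPM. SERPINA1, the inhibitor of neutrophil elastase, had 7.57, 8.17 and 6.29 CPM in the CEL libraries, against 138, 134 and 137 CPM in the LPS libraries (-4.21 ± 0.11). LYZ was 6.99-fold lower (-2.80 ± 0.06).

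Among 22 tested surface receptors 8 were lower and 5 higher, beside 27.2% of all genes lower and 28.7% higher. CCR2, the receptor that draws monocytes out of bone marrow, had 4.98, 5.76 and 6.61 CPM in the CEL libraries, against 130.3, 130.5 and 119.8 CPM in the LPS libraries (-4.46 ± 0.10), and it was at 244, 228 and 238 CPM in NC. FCGR1A, an activating Fc receptor for IgG, had 19.4, 24.4 and 23.9 CPM in the CEL libraries, against 189.6, 199 and 195 CPM in the LPS libraries (-3.11 ± 0.10). FCGR2B, the inhibitory Fc receptor, went the other way with 49.9, 47.0 and 48.1 CPM in the CEL libraries, against 3.73, 5.25 and 3.68 CPM in the LPS libraries (log2 change 3.52 ± 0.14, adjusted p = 4.28e-09). Reads of FCGR1A and FCGR2B can also match near-identical paralogs, so these 2 values are uncertain. CSF1R (adjusted p = 0.920), ITGAM (adjusted p = 0.637) and SPI1, the myeloid master factor (adjusted p = 0.263), did not pass, although SPI1 was lower in 2 of 15 alternatives. These 3 were chosen after their values were seen. The myeloid factor IRF8 was lower at 173 ± 9.13 CPM in CEL and 324 ± 5.73 CPM in LPS (-0.90 ± 0.08), and MYC, a growth factor-response gene, at 12.7 ± 2.67 CPM in CEL and 37.7 ± 6.87 CPM in LPS (-1.56 ± 0.29).

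Chemokine genes were mostly lower. Of 33 tested ligands and receptors 4 were higher, 21 lower and 8 did not pass, with a median of -1.09. CCL2, the main ligand of CCR2, had 168, 197 and 204 CPM in the CEL libraries, against 950.1, 974 and 778 CPM in the LPS libraries (log2 change -2.25 ± 0.12, adjusted p = 3.25e-08). CCL4, a chemokine of macrophages, had 22.2, 25.1 and 27.9 CPM in the CEL libraries, against 113, 123 and 103 CPM in the LPS libraries (-2.17 ± 0.11), and its reads can also match its close copy CCL4L2. CXCL1, a neutrophil attractant, had 6.62, 7.37 and 5.80 CPM in the CEL libraries, against 63.9, 62.2 and 58.2 CPM in the LPS libraries (-3.22 ± 0.10). The groups did not overlap for these 3, as was so for 65.5% of all genes tested. The interferon-induced CXCL10 was at 56.2 ± 3.11 CPM in CEL and 188 ± 15.2 CPM in LPS (-1.74 ± 0.09). CCL5, chosen after its values were seen, was at 211 ± 3.83 CPM in CEL and 208 ± 7.64 CPM in LPS and did not pass (adjusted p = 0.809). CCL24, an eosinophil attractant chosen in the same way, was at 3.90, 2.91 and 3.87 CPM in CEL against 0.246, 0.568 and 0.400 CPM in LPS (3.12 ± 0.53).

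Genes of the pyroptosis machinery did not move as a block. Of 33 tested members of the inflammasome, pyroptosis and IL-1 list 9 were higher, 18 lower and 6 did not pass, with a median of -0.42. IL1B had 1008, 1110.2 and 1109.8 CPM in the CEL libraries, against 2043, 2054 and 1866 CPM in the LPS libraries (log2 change -0.89 ± 0.08, adjusted p = 3.71e-06), and NC had 1.83, 2.33 and 2.06 CPM. IL1A, its membrane-bound relative, had 25.4, 30.4 and 30.1 CPM in the CEL libraries, against 57.5, 53.4 and 50.3 CPM in the LPS libraries (log2 change -0.91 ± 0.08, adjusted p = 2.23e-06). IL18, also matured by caspase-1, was higher, with 21.7, 25.1 and 28.9 CPM in the CEL libraries, against 11.6, 12.3 and 11.99 CPM in the LPS libraries (log2 change 1.07 ± 0.10, adjusted p = 4.39e-06), and CEL overlapped NC at 26.04, 22.5 and 23.7 CPM. The groups CEL and LPS did not overlap for any of the 3, as was so for 65.5% of all genes tested.

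NLRP3, the sensor that ATP triggers, was higher, with 245, 251 and 261 CPM in the CEL libraries, against 107, 104 and 107 CPM in the LPS libraries (log2 change 1.25 ± 0.05, adjusted p = 2.68e-09). CASP1, the protease of the inflammasome, was lower by a small amount, with 159.7, 170.0 and 169 CPM in the CEL libraries, against 226, 229.7 and 212 CPM in the LPS libraries (log2 change -0.42 ± 0.06, adjusted p = 7.69e-05). That call was lost with limma on log2(TPM + 1) (adjusted p = 0.0704) and on log2(TPM + 0.1) (adjusted p = 0.0737). PYCARD, the adaptor that joins sensor and protease, was at 7.61 ± 1.06 CPM in CEL and 8.87 ± 0.614 CPM in LPS and did not pass (adjusted p = 0.333). GSDMD, which forms the lytic pore, was barely detected, with 0.476, 0.301 and 0.107 CPM in the CEL libraries, against 0.246, 0.284 and 0.932 CPM in the LPS libraries (log2 change -0.70 ± 0.87, adjusted p = 0.529). Without LPS 3, the highest of these, its log2 change was 0.19.

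Several other sensors and a caspase were lower. AIM2, which senses DNA in the cytosol, had 2.25, 1.55 and 2.10 CPM in the CEL libraries, against 13.3, 12.9 and 10.1 CPM in the LPS libraries (-2.61 ± 0.22). NAIP, a sensor for bacterial needle and flagellin proteins with near-identical copies in the genome, had 9.48, 9.32 and 7.68 CPM in the CEL libraries, against 75.5, 77.2 and 70.1 CPM in the LPS libraries (-3.07 ± 0.10). CASP5, a lipopolysaccharide-sensing caspase, had 0.476, 0.802 and 0.752 CPM in the CEL libraries, against 4.47, 3.45 and 3.86 CPM in the LPS libraries (-2.54 ± 0.35). The caspase CASP4, named after its values were seen, was higher (0.26), a call lost in 4 of 15 alternatives. Of 8 tested caspases and gasdermins 3 were higher, 3 lower and 2 did not pass. The natural brakes on IL-1 were also lower: the decoy receptor IL1R2 had 0.173, 0.200 and 0.537 CPM in the CEL libraries, against 8.35, 8.75 and 8.83 CPM in the LPS libraries (-4.84 ± 0.42; -5.49 without CEL 3), and the receptor antagonist IL1RN had 50.5, 54.8 and 55.9 CPM in the CEL libraries, against 190.1, 191 and 172 CPM in the LPS libraries (-1.78 ± 0.09). P2RX7, the ATP channel, was at 5.30 ± 0.504 CPM in CEL and 13.8 ± 0.175 CPM in LPS (-1.38 ± 0.12) and was named after its values were seen.

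**Figure D3:**
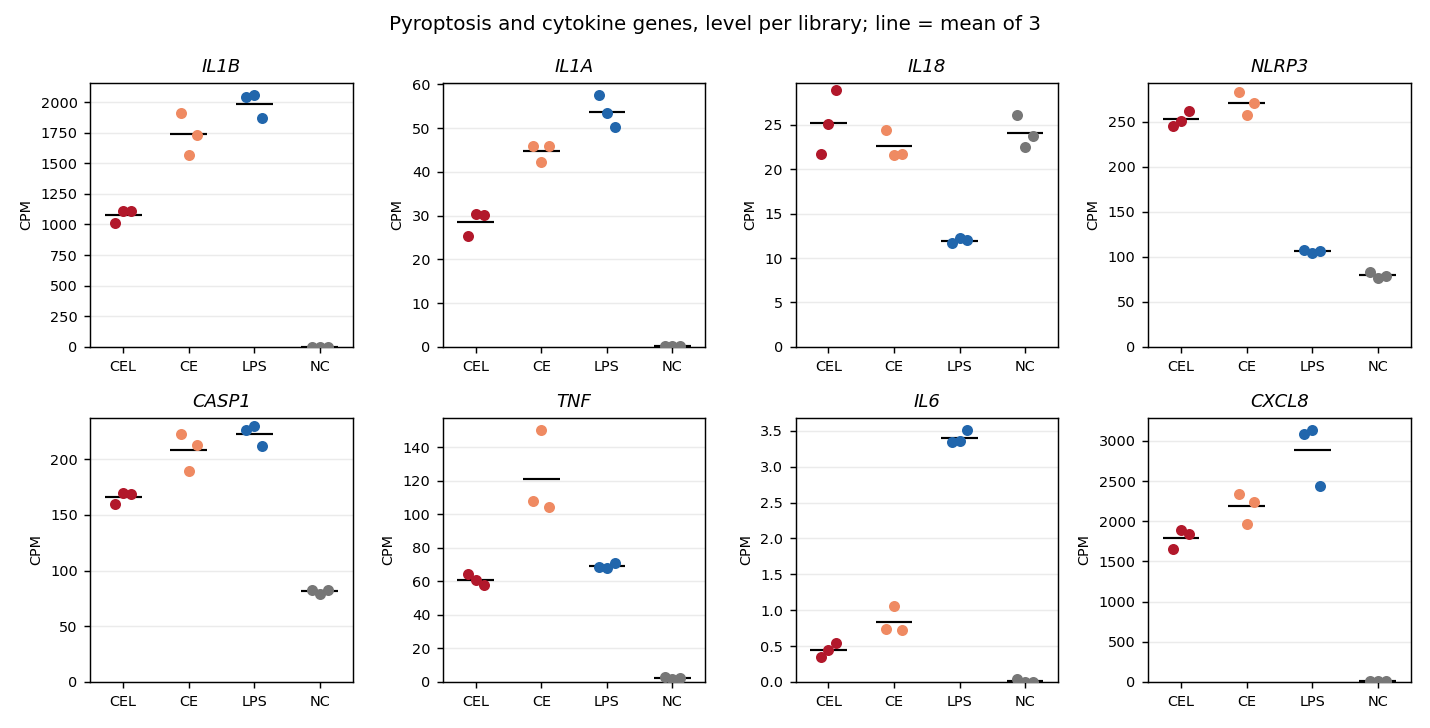
Level of 8 pyroptosis and cytokine genes in each of the 12 libraries (CPM, linear axes from 0), with the mean of 3 libraries as a line. IL1B, IL1A, CASP1, IL6 and CXCL8 lie lower in CEL than in LPS, IL18 and NLRP3 higher, and TNF does not separate past the threshold.

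Of the cytokines that NF-kB controls, IL6 was close to the detection limit in CEL, with 0.346, 0.451 and 0.537 CPM in the CEL libraries, against 3.34, 3.36 and 3.51 CPM in the LPS libraries (log2 change -2.93 ± 0.31, adjusted p = 9.44e-06). TNF had 64.1, 60.5 and 58.0 CPM in the CEL libraries, against 68.5, 67.9 and 71.0 CPM in the LPS libraries and did not pass (log2 change -0.18 ± 0.14, adjusted p = 0.276). With the 6 libraries alone the adjusted p of TNF was 0.0252, and with upper quartile scaling 0.0489, both with TNF lower in CEL. CXCL8, a neutrophil attractant, had 1655, 1892 and 1843 CPM in the CEL libraries, against 3089.8, 3130.2 and 2434 CPM in the LPS libraries (log2 change -0.68 ± 0.12, adjusted p = 3.61e-04). IL23A, a subunit of interleukin-23, had 26.4, 28.9 and 30.9 CPM in the CEL libraries, against 108, 110.4 and 102 CPM in the LPS libraries (-1.89 ± 0.10), while IL15 was higher with 2.68, 2.20 and 2.10 CPM in the CEL libraries, against 0.638, 0.520 and 0.488 CPM in the LPS libraries (2.08 ± 0.22).

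Several feedback genes of NF-kB were higher. Of 41 tested NF-kB targets and cytokines 15 were higher, 11 lower and 15 did not pass, with a median of 0.28. Among 15 feedback genes and subunits 6 were higher and 1 lower. Of all genes 28.7% were higher and 27.2% lower. TNFAIP3, a ubiquitin-editing enzyme that shuts the pathway down, had 655, 605 and 598 CPM in the CEL libraries, against 169, 174 and 179 CPM in the LPS libraries (log2 change 1.83 ± 0.08, adjusted p = 7.62e-09). BIRC3, a ubiquitin ligase of TNF receptor signalling, had 335, 348 and 385 CPM in the CEL libraries, against 86.1, 87.9 and 72.1 CPM in the LPS libraries (2.12 ± 0.08). The inhibitor NFKBIA had 411, 402 and 416 CPM in the CEL libraries, against 177, 178 and 169 CPM in the LPS libraries (1.23 ± 0.04). The groups did not overlap for these 3, as was so for 65.5% of all genes tested. The surface proteins CD83 (1.86 ± 0.12) and CD40 (1.36 ± 0.10), both of antigen-presenting cells, were also higher.

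Among 22 tested genes of TLR4 signalling 12 were higher, 5 lower and 5 did not pass, with a median of 0.52. The ubiquitin ligase TRAF6, which passes the signal on, had 54.9, 54.6 and 56.6 CPM in the CEL libraries, against 18.9, 22.2 and 18.2 CPM in the LPS libraries (1.49 ± 0.08). IRAK3, an inhibitory member of its kinase family, had 87.9, 89.9 and 88.1 CPM in the CEL libraries, against 253, 250.1 and 253 CPM in the LPS libraries (-1.51 ± 0.03). TLR8, a sensor of RNA, had 21.3, 22.6 and 21.7 CPM in the CEL libraries, against 104, 109 and 96.5 CPM in the LPS libraries (-2.23 ± 0.17), and CD180, a TLR4-like receptor, was at 3.07 ± 0.373 CPM in CEL and 8.86 ± 0.442 CPM in LPS (-1.53 ± 0.13). TLR4 itself, named after its values were seen, was at 48.2 ± 3.07 CPM in CEL and 37.9 ± 3.31 CPM in LPS (0.35 ± 0.08), a call lost with no low-count filter.

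Interferon-response genes leaned downward. Of 43 tested members 6 were higher, 22 lower and 15 did not pass, with a median of -0.56. The ISRE was found in 26 of 39 promoter windows of this list (66.7%), against 3.57% of all windows. It was in 5.46% of windows of genes lower by at least 2-fold and 3.32% of those of tested genes. IFI44L had 251, 249.9 and 266 CPM in the CEL libraries, against 713, 695 and 639 CPM in the LPS libraries (-1.42 ± 0.07). STAT2, a transducer of interferon signals, had 62.2, 62.1 and 59.0 CPM in the CEL libraries, against 149, 149 and 152 CPM in the LPS libraries (-1.30 ± 0.06). IDO1, which degrades tryptophan, had 0.692, 0.952 and 1.07 CPM in the CEL libraries, against 15.1, 12.5 and 11.1 CPM in the LPS libraries (log2 change -3.83 ± 0.22, adjusted p = 7.07e-08). IFNB1, the ligand, had 3 counts over the CEL libraries and 41 over the LPS libraries, a ratio LPS over CEL of 14.2 with an exact 95% interval of 4.53 to 71.7 for counting error only. It was named after its values were seen.

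The pathways on which the 3 drugs act were examined next. RCAN1, which inhibits calcineurin and is itself induced by calcineurin through NFAT, had 11.3, 12.2 and 11.98 CPM in the CEL libraries, against 406, 402 and 379.5 CPM in the LPS libraries (log2 change -5.07 ± 0.12, adjusted p = 1.08e-10). It was 10.9 ± 2.00 CPM in CE and 17.5 ± 1.42 CPM in NC, so that CEL, CE and NC were all far below LPS. Of 25 tested genes of calcineurin, NFAT and immediate early genes 12 were higher, 4 lower and 9 did not pass, with a median of 0.63. The calcineurin regulatory subunit PPP3R1 was at 148 ± 8.60 CPM in CEL and 79.8 ± 3.68 CPM in LPS (0.89 ± 0.08) and NFAT5, a factor of the osmotic response, at 96.9 ± 5.54 CPM in CEL and 30.1 ± 0.959 CPM in LPS (1.69 ± 0.07). Of 10 tested immediate early genes 3 were higher, 1 lower and 6 did not pass, beside 28.7% of all genes higher and 27.2% lower. The stress-induced ATF3 was at 48.3, 51.3 and 49.0 CPM in CEL against 12.1, 10.9 and 10.5 CPM in LPS (2.15 ± 0.10) and EGR2 at 6.36, 6.31 and 7.63 CPM in CEL against 1.87, 1.23 and 1.82 CPM in LPS (2.04 ± 0.24). NR4A2, an orphan nuclear receptor, was also higher (1.11 ± 0.26), and FOS, an AP-1 subunit named after its values were seen, was lower at 25.1 ± 3.55 CPM in CEL and 44.9 ± 4.39 CPM in LPS (-0.84 ± 0.22).

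Iron and heme genes were called higher or lower at shares near the 28.7% and 27.2% of all genes. Of 30 tested members 8 were higher, 10 lower and 12 did not pass, with a median of -0.08. FTH1, the ferritin heavy chain that stores iron, had 4532, 4508 and 4665 CPM in the CEL libraries, against 1936, 1892 and 2024 CPM in the LPS libraries (log2 change 1.23 ± 0.06, adjusted p = 2.96e-08), and its reads can also match its pseudogenes. FBXL5, the iron sensor that degrades iron regulatory proteins, had 52.98, 54.9 and 62.9 CPM in the CEL libraries, against 135, 138 and 121 CPM in the LPS libraries (-1.20 ± 0.08). HMOX1, which breaks heme down, had 47.1, 43.4 and 40.1 CPM in the CEL libraries, against 24.1, 23.8 and 27.6 CPM in the LPS libraries (0.79 ± 0.16). The transferrin receptor TFRC, named after its values were seen, was at 816 ± 47.8 CPM in CEL and 593 ± 24.1 CPM in LPS (0.46 ± 0.06).

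Many receptors and targets of TGF-beta and activin were higher. Of 39 tested members 24 were higher, 4 lower and 11 did not pass, with a median of 0.70. Of 12 receptors 7 were higher and 0 lower, among them TGFBR3, the co-receptor betaglycan, at 38.3 ± 5.57 CPM in CEL and 10.3 ± 0.985 CPM in LPS (1.89 ± 0.12), TGFBR2 at 99.9 ± 3.06 CPM in CEL and 44.9 ± 0.615 CPM in LPS (1.15 ± 0.08) and TGFBR1 at 312 ± 13.1 CPM in CEL and 150.2 ± 6.95 CPM in LPS (1.06 ± 0.04). Of 20 SMADs and targets 16 were higher and 1 lower. KLF10, a TGF-beta-inducible factor, had 282, 284 and 316 CPM in the CEL libraries, against 37.5, 35.1 and 31.7 CPM in the LPS libraries (log2 change 3.08 ± 0.08, adjusted p = 1.89e-10). The SMAD repressor SKIL had 376, 371 and 413 CPM in the CEL libraries, against 59.9, 62.6 and 54.6 CPM in the LPS libraries (log2 change 2.71 ± 0.06, adjusted p = 9.50e-11). The 1 lower target was THBS1, an activator of TGF-beta in the matrix, with 12.6, 12.98 and 12.1 CPM in the CEL libraries, against 91.1, 87.2 and 94.7 CPM in the LPS libraries (-2.86 ± 0.09).

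Of 7 tested ligands and traps 1 was higher and 3 lower. GDF11 was lower with 1.90, 1.70 and 1.61 CPM in the CEL libraries, against 4.86, 4.64 and 6.97 CPM in the LPS libraries (-1.65 ± 0.24). The activin subunit gene INHBA had 0.692, 1.102 and 0.484 CPM in the CEL libraries, against 2.60, 2.37 and 2.75 CPM in the LPS libraries (log2 change -1.75 ± 0.39, adjusted p = 0.00241), a call lost with limma on log2(TPM + 0.1) (adjusted p = 0.0641). The activin receptor gene ACVR2A (0.92 ± 0.09) and the BMP target ID3, at 4.63, 5.01 and 4.24 CPM in CEL against 0.196, 0.237 and 0.266 CPM in LPS (4.27 ± 0.45), were higher and were named after their values were seen. None of these changes can be assigned to luspatercept from CEL and LPS alone. Set against CE, 1 of the 12 receptors was higher in CEL and 1 lower. Of the 20 SMADs and targets 7 were higher in CEL than in CE and 3 lower. Over all genes 8.78% were higher in CEL than in CE and 14.8% lower.

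Protein stress genes divided by branch. Of 18 tested genes of the integrated stress response and amino acid supply 11 were higher and 2 lower. Of 17 genes of the unfolded protein response 6 were higher and 6 lower, and of 10 heat shock genes 0 were higher and 7 lower. The shares over all genes were 28.7% higher and 27.2% lower. Over these 45 genes the median was 0.13. DDIT3, the stress factor CHOP, had 74.1, 81.6 and 80.6 CPM in the CEL libraries, against 21.5, 25.4 and 21.2 CPM in the LPS libraries (1.79 ± 0.09). ASNS, which makes asparagine, had 119, 126 and 126 CPM in the CEL libraries, against 43.7, 41.4 and 36.8 CPM in the LPS libraries (1.61 ± 0.08), and the endoplasmic reticulum chaperone partner DNAJB9 had 71.8, 79.7 and 81.4 CPM in the CEL libraries, against 23.1, 21.6 and 18.7 CPM in the LPS libraries (1.88 ± 0.08). HSPA8, the constitutive heat shock protein, whose reads can also match pseudogenes, had 1101, 1224 and 1202 CPM in the CEL libraries, against 4108, 4136 and 3929 CPM in the LPS libraries (log2 change -1.79 ± 0.08, adjusted p = 9.87e-09).

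Lysosome and autophagy genes were higher. Of 52 tested members 32 were higher, 4 lower and 16 did not pass, with a median of 0.61; of 9 subunits of the proton pump 7 were higher and 0 lower. The pump subunit ATP6V1H had 263, 277 and 299.6 CPM in the CEL libraries, against 66.0, 73.4 and 71.6 CPM in the LPS libraries (log2 change 1.99 ± 0.07, adjusted p = 2.31e-09). The sulphatase IDS had 276, 288 and 301 CPM in the CEL libraries, against 83.5, 86.5 and 76.0 CPM in the LPS libraries (1.81 ± 0.07). MAP1LC3B, which coats autophagosomes, had 126, 129.8 and 139 CPM in the CEL libraries, against 44.1, 41.5 and 41.8 CPM in the LPS libraries (1.63 ± 0.06). Sterol synthesis and uptake genes also leaned upward, with 10 of 21 tested members higher, 2 lower and 9 not passed. The rate-setting enzyme SQLE had 495, 493 and 526 CPM in the CEL libraries, against 214, 217 and 206 CPM in the LPS libraries (1.25 ± 0.04).

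**Figure D4:**
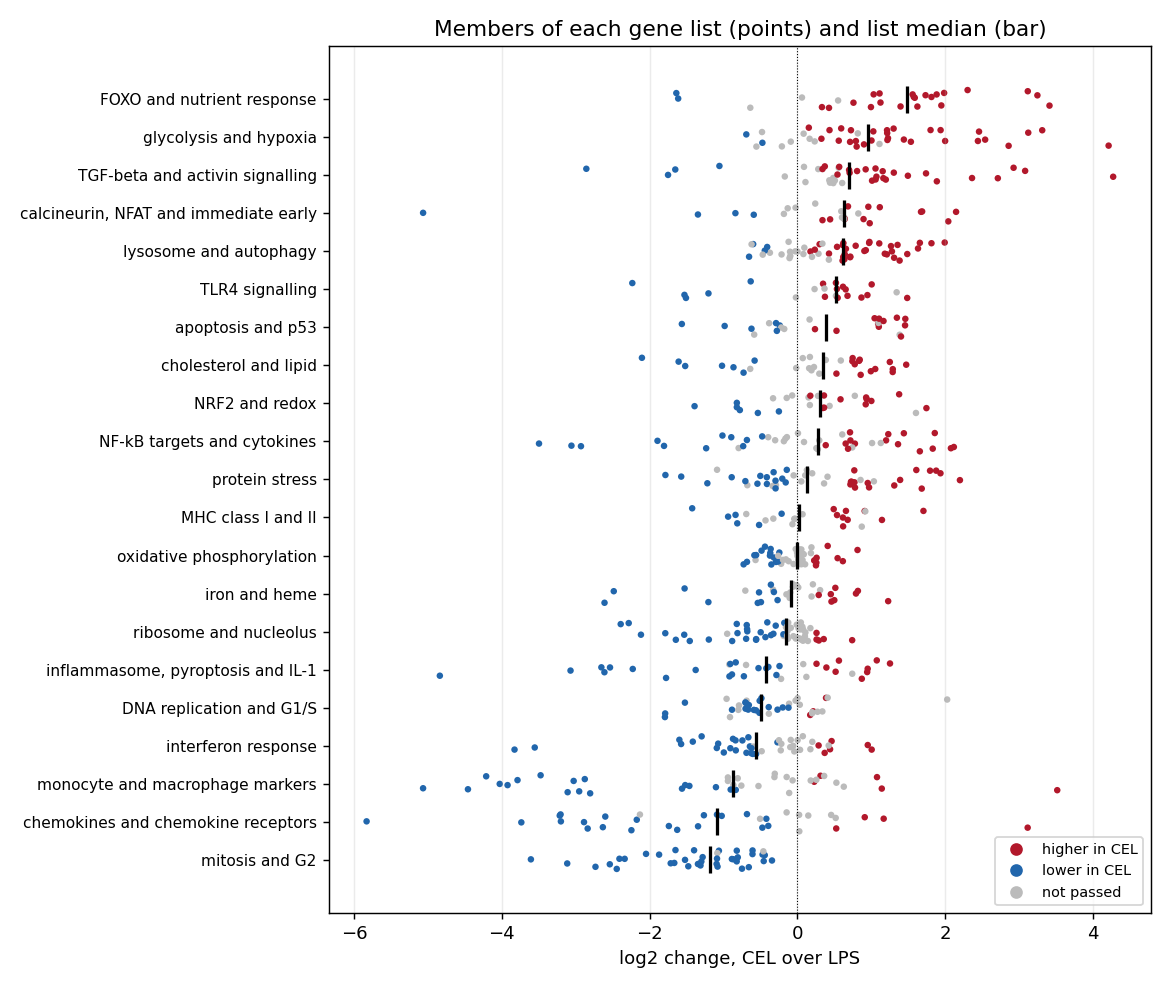
Log2 change in CEL over LPS of every tested member of 21 gene lists (points) and the median of each list (bar), ordered by median. Medians run from -1.19 for mitosis and G2 at the bottom to 1.48 for the FOXO and nutrient response at the top.

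Where the libraries of CEL and LPS did not overlap and the mean log2 CPM reached 3, the 10 largest rises were FCGR2B, ZC3H12C, CREBRF, DUSP10, CD300A, ALDOC, KLHL24, GPNMB, BNIP3L and TSC22D3, with log2 changes of 3.12 to 3.52. ZC3H12C, a relative of the RNase that degrades cytokine messages, had 453, 424 and 479 CPM in the CEL libraries, against 43.3, 43.2 and 37.2 CPM in the LPS libraries (log2 change 3.45 ± 0.09, adjusted p = 2.92e-10). DUSP10, a phosphatase of the kinases p38 and JNK, had 332, 337 and 361 CPM in the CEL libraries, against 33.6, 32.8 and 31.7 CPM in the LPS libraries (3.39 ± 0.07). CD300A, an inhibitory receptor of myeloid cells, had 111, 111 and 117 CPM in the CEL libraries, against 10.7, 10.4 and 11.99 CPM in the LPS libraries (3.36 ± 0.08). GPNMB, a lysosome-linked membrane glycoprotein, had 139, 146 and 160.0 CPM in the CEL libraries, against 16.5, 17.5 and 14.6 CPM in the LPS libraries (3.19 ± 0.11). For each of these 4 genes, NC was below CEL, at 16.2 ± 0.134, 19.8 ± 0.142, 4.74 ± 0.150 and 3.41 ± 0.500 CPM.

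By the same rule the 10 largest falls were HSD11B1, S100A8, RCAN1, CCR2, SERPINA1, MS4A6A, CCDC26, S100A9, BEX1 and DHRS9, with log2 changes of -5.54 to -3.63. HSD11B1, which regenerates active cortisol, had 2.21, 3.06 and 2.31 CPM in the CEL libraries, against 116, 121 and 117 CPM in the LPS libraries (log2 change -5.54 ± 0.11, adjusted p = 4.30e-11). MS4A6A, a membrane protein of monocytes and macrophages, had 7.79, 9.02 and 8.11 CPM in the CEL libraries, against 147, 149 and 141 CPM in the LPS libraries (-4.13 ± 0.08). DHRS9, a retinol dehydrogenase, had 7.49, 8.57 and 8.76 CPM in the CEL libraries, against 104, 103 and 100.03 CPM in the LPS libraries (-3.63 ± 0.08). CCDC26, a long noncoding RNA gene, had 1.56, 1.60 and 1.93 CPM in the CEL libraries, against 31.0, 29.1 and 26.8 CPM in the LPS libraries (-4.09 ± 0.11), and BEX1, a small adaptor protein, had 2.51, 2.71 and 2.58 CPM in the CEL libraries, against 38.4, 36.6 and 34.5 CPM in the LPS libraries (-3.81 ± 0.09). In NC, MS4A6A, CCDC26, BEX1 and DHRS9 lay above LPS, at 159 ± 5.19, 59.6 ± 2.51, 164 ± 7.03 and 126 ± 2.39 CPM. Their low level in CEL was thus below both LPS and NC.

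Markers of other cell types were looked at because several genes that fell in CEL are better known outside monocytes. Of 53 such markers 14 could be tested, of which 1 was higher and 7 lower. DCN, a matrix proteoglycan of fibroblasts, had 0.952, 1.35 and 1.02 CPM in the CEL libraries, against 37.8, 39.4 and 34.4 CPM in the LPS libraries (log2 change -5.06 ± 0.25, adjusted p = 1.96e-08), and LUM, its relative, had 1.04, 1.05 and 0.967 CPM in the CEL libraries, against 36.6, 37.7 and 31.2 CPM in the LPS libraries (log2 change -5.10 ± 0.26, adjusted p = 2.31e-08). NC was at 0.0443 ± 0.0457 and 0.0277 ± 0.0480 CPM. The collagen genes COL1A1 and COL1A2, which define fibroblasts, held 18 and 8 counts over the CEL libraries and 3 and 1 over the LPS libraries. Summed over 16 markers of fibroblasts, epithelium and endothelium, levels were 471 to 517 CPM in CEL and 385 to 426 CPM in LPS, nearly all of it PECAM1, which monocytes express too. TRAC, the constant region of a T cell receptor, was at 0.836 ± 0.232 CPM in CEL and 7.41 ± 0.439 CPM in LPS (-3.13 ± 0.25), while CD3E and MS4A1 were at 0 counts in both groups. Summed over 13 lymphocyte markers, levels were 111.0 to 153 CPM in CEL and 157 to 205 CPM in LPS, mostly CD4, which monocytes express too. The part of these cell types in the results was not tested.

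CE was set beside the comparison to show where the culture with luspatercept differed from the culture with the other 2 drugs. CEL and CE were tested in the same fit; the tests against CE and against LPS share the CEL libraries. The CE columns were matched to their labels as the only group left, and every CE value rests on that. CE 2 stood apart from CE 1 and CE 3 on the third principal component of the 12 libraries. In CEL 1235 genes (8.78%) were higher and 2086 (14.8%) lower than in CE, with 125 (0.889%) higher and 348 (2.47%) lower by at least 2-fold. The number of lower genes moved when 1 library was left out, with 1142 without CEL 1, 1098 without CEL 2 and 1874 without CEL 3. It was 1367 without CE 1, 2459 without CE 2 and 1145 without CE 3.

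Of the 38 mitosis genes 36 were lower in CEL than in CE and 0 higher. KIF20A was 4.49-fold lower in CEL than in CE (log2 change -2.17 ± 0.08, adjusted p = 7.53e-08), and HMMR had 30.6, 31.0 and 33.7 CPM in CEL against 137, 118 and 132 CPM in CE (log2 change -2.02 ± 0.07, adjusted p = 7.25e-08). Glycolysis and hypoxia genes were higher in CEL than in CE for 19 of 40 members and lower for 0, including ENO2 (0.76 ± 0.10). IL1B (log2 change -0.69 ± 0.08, adjusted p = 1.75e-04), IL1A (log2 change -0.64 ± 0.08, adjusted p = 2.22e-04) and TNF (log2 change -0.99 ± 0.14, adjusted p = 3.92e-04) were lower in CEL than in CE. NLRP3 (log2 change -0.10 ± 0.05, adjusted p = 0.162) and IL18 (log2 change 0.16 ± 0.10, adjusted p = 0.311) did not pass, and RCAN1 did not either (log2 change 0.12 ± 0.11, adjusted p = 0.489). Without CE 2, NLRP3 passed as lower in CEL (adjusted p = 0.0406) and RCAN1 as higher (adjusted p = 0.0349).

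Among genes that also differed between CEL and LPS and whose log2 CPM averaged 3 or more across all libraries, the 5 largest rises of CEL over CE were in SERPINE2, MX1, GADD45B, TNFRSF10D and HMOX1. SERPINE2, a protease inhibitor of the cell surface, had 55.1, 55.8 and 56.6 CPM in CEL against 6.84, 6.98 and 7.71 CPM in CE (log2 change 2.96 ± 0.08, adjusted p = 3.22e-09), and LPS had 9.18, 9.98 and 9.55 CPM. MX1, an interferon-induced antiviral GTPase, had 148, 146 and 153 CPM in CEL against 22.7, 22.9 and 23.7 CPM in CE (log2 change 2.69 ± 0.04, adjusted p = 5.28e-11), and LPS had 273, 262 and 262 CPM. MX1 was thus highest in LPS, lower in CEL and lowest of these 3 groups in CE, while 24 of the 43 interferon-response members were lower in CEL than in CE and 3 were higher. GADD45B, a stress and growth arrest gene, had 38.0, 42.0 and 44.5 CPM in CEL against 11.7, 11.6 and 10.9 CPM in CE (log2 change 1.86 ± 0.09, adjusted p = 3.20e-07), and LPS had 11.2, 11.1 and 13.01 CPM. HMOX1 had 47.1, 43.4 and 40.1 CPM in CEL against 13.5, 19.4 and 14.2 CPM in CE (log2 change 1.47 ± 0.16, adjusted p = 8.39e-05).

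The 5 largest falls by the same rule, with the same minimum level, were in KIF20A, HMMR, PSRC1, FGD4 and RXFP1. PSRC1, a spindle protein, had 6.10, 5.46 and 4.89 CPM in CEL against 15.8, 28.3 and 16.2 CPM in CE (log2 change -1.87 ± 0.20, adjusted p = 8.45e-05), and CE 2 was the highest of its group. FGD4, an exchange factor for CDC42, had 16.3, 15.4 and 17.5 CPM in CEL, 58.6, 55.9 and 62.6 CPM in CE and 49.0, 45.9 and 37.8 CPM in LPS. RXFP1, the relaxin receptor, had 4.72, 6.56 and 6.02 CPM in CEL, 19.2, 17.6 and 19.7 CPM in CE and 45.2, 45.3 and 38.6 CPM in LPS. All 10 of these rises and falls passed without CE 2 as well.

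**Figure D5:**
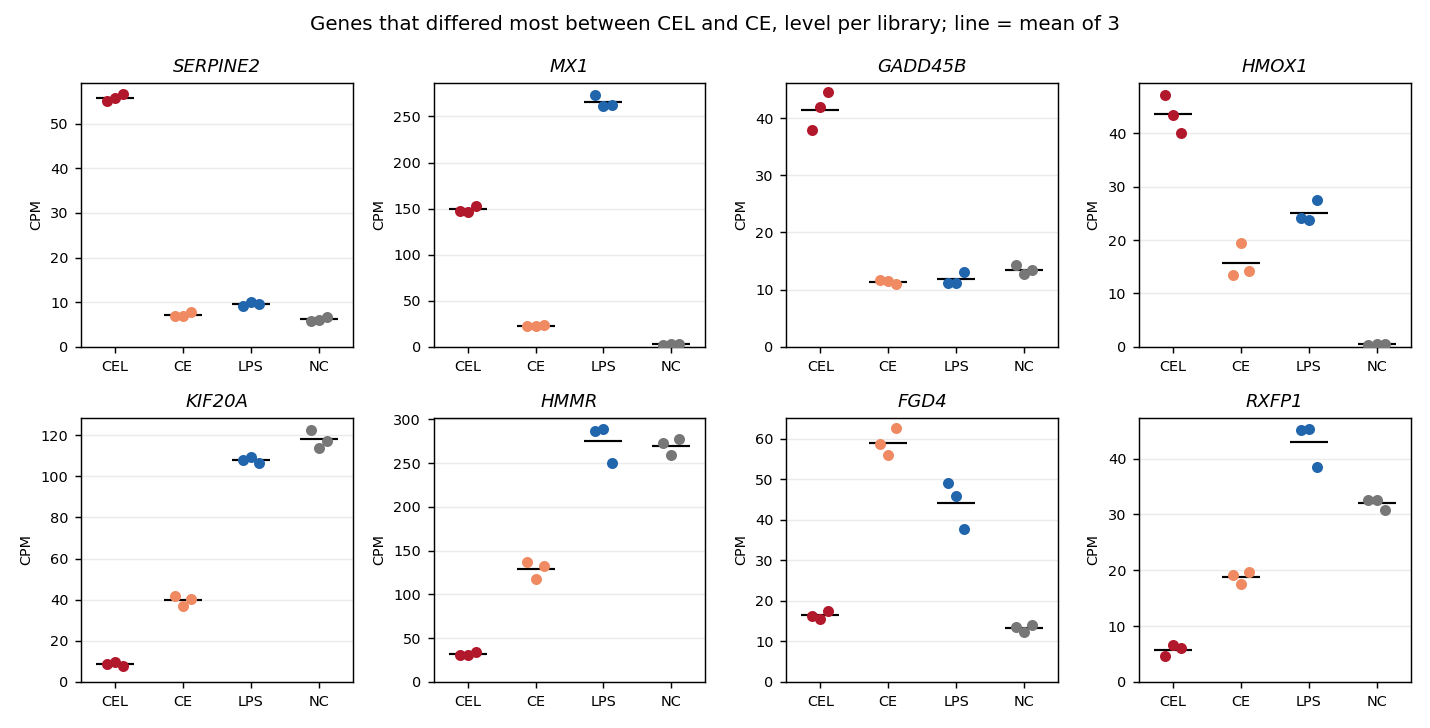
Level per library of 8 of the genes that differed most between CEL and CE (CPM, linear axes from 0), with the mean of 3 libraries as a line. SERPINE2, MX1, GADD45B and HMOX1 lie higher in CEL than in CE, and KIF20A, HMMR, FGD4 and RXFP1 lower; LPS and NC are drawn beside them.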

How the data were processed

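RNA for 12 THP-1 libraries was captured on oligo-dT beads and sequenced, per the labels. The authors deposited estimated counts on hg38, per the submitters' processing notes (29.3% of nonzero values are not whole within 0.005), and TPM. The deposited FPKM were not used. The sources used here do not name the aligner, counter, strand setting or annotation. Counts were rounded; filterByExpr kept 14065 genes, and all 12 libraries entered 1 quasi-likelihood fit (edgeR 4.0.16, R 4.3.3; common dispersion 0.0405, 8 residual degrees of freedom), with adjustment over all genes kept. The standard error is the log2 change over the square root of F. Alternatives used limma 3.58.1 on log2(TPM + 1) and log2(TPM + 0.1), and DESeq2 1.42.0; the fit was tested on simulated data.

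Named genes are 4 markers, 10 pyroptosis and cytokine genes, the 10 largest rises and falls, up to 3 members per list role by smallest p, and the 5 largest rises and falls against CE. Values of some named genes are not reported here. Members and lists were chosen with earlier results of these data known. No source says the 3 libraries of a group are separate cultures, so p-values measure only their spread, which may be technical. Intervals cover counting error only. In the labels the batch and the replicate number are the same, which pairs the libraries. The main fit had group as its only term, so its p-values and standard errors do not use this pairing. Same-numbered CEL and LPS libraries deviated from their group means with r = -0.26, 0.24 and -0.62 over 7460 genes.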

Additional observations from a re-analysis of the deposited data

How the results depend on the processing

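Of 189 named genes under 15 alternatives, 2783 of 2834 values kept their direction and their side of the threshold, 48 lost it, 2 gained it and 1 changed sign. The change of sign was in GSDMD, at 0.19 without LPS replicate 3 (-1.20 to 0.19 over the libraries left out), and the gains were in TNF. The values lost lay mostly with limma on log2(TPM + 1) (16) and on log2(TPM + 0.1) (18), and the cause was not tested. Limma on log2(TPM + 1) gave 1936 genes lower, and on log2(TPM + 0.1) 1980 lower. By at least 2-fold, log2(TPM + 1) gave 954 higher and 679 lower, and log2(TPM + 0.1) 1429 higher and 1235 lower. Leaving out 1 library gave 3721 to 3941 genes higher and 3164 to 3570 lower in CEL than in LPS, and 837 to 1685 higher and 1098 to 2459 lower in CEL than in CE. Scaling by library size alone shifted the median gene by -0.112 and gave 3381 higher and 4383 lower, and no low-count filter gave 3258 and 4441; limma moved the median by 0.108. With the replicate block 7537 genes were called, 3899 higher and 3638 lower, of which 7497 were also called without it; it gave 1035 higher and 1768 lower in CEL than in CE. The block changed 13 of 776 calls among named or listed genes, of which only HLA-DQA1 is named in the text, and moved no list count by over 1.5 times. List counts moved by over 1.5 times for 14 and 16 of 44 with limma and for 0 to 5 with the other alternatives. A change in genes near the detection limit, such as GSDMD and IL6, was not measured precisely at this depth.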

Other observations

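Genes for making ribosomes were lower in CEL while ribosomal proteins mostly did not pass. Of 23 tested genes of ribosome biogenesis, 1 was higher, 20 lower and 2 did not pass, with a median of -0.81; of 33 ribosomal proteins, whose reads can also match pseudogenes, 4 were higher, 5 lower and 24 did not pass. NOP56, which guides methylation of ribosomal RNA, had 69.3, 72.6 and 74.0 CPM in the CEL libraries, against 248, 253 and 245 CPM in the LPS libraries (log2 change -1.79 ± 0.05, adjusted p = 2.09e-10). NOP16, a nucleolar assembly factor, had 18.4, 20.6 and 20.04 CPM in the CEL libraries, against 56.3, 57.3 and 56.9 CPM in the LPS libraries (-1.53 ± 0.07), and UTP20, a part of the small subunit processome, had 29.7, 29.6 and 32.0 CPM in the CEL libraries, against 70.1, 67.4 and 71.9 CPM in the LPS libraries (-1.20 ± 0.06). Of 47 tested genes of oxidative phosphorylation 9 were higher, 14 lower and 24 did not pass, with a median of 0.00, which is nearer to 0 than the shift of -0.135 that upper quartile scaling gives. Of the 13 mitochondrially encoded transcripts 3 were higher, 4 lower and 6 did not pass, with a median of -0.16. MT-ND6 (0.81 ± 0.11) and MT-ND5 (0.61 ± 0.07) were higher and MT-CO2 lower (-0.58 ± 0.09), a call lost with both limma alternatives.

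Antigen presentation divided by class. Of 9 tested MHC class II genes 7 were higher and 0 lower, and of 15 class I genes 2 were higher and 6 lower. Over both, the number lower was 3, 2 and 3 without CEL 1, CEL 2 and LPS 3. Several class II calls were fragile. Of 15 alternatives, 12 ended the call of HLA-DQA1, 8 that of HLA-DPA1, 7 that of HLA-DQB1 and 2 that of HLA-DMA. These genes were named after their values were seen. HLA-DRA had 33.7, 34.5 and 34.8 CPM in the CEL libraries, against 16.4, 15.8 and 14.4 CPM in the LPS libraries (1.14 ± 0.10), and CD74, the invariant chain, 178, 177 and 176 CPM in the CEL libraries, against 122, 123 and 133 CPM in the LPS libraries (0.49 ± 0.05). PSMB8, an immunoproteasome subunit, had 109, 119 and 119 CPM in the CEL libraries, against 215, 224 and 225 CPM in the LPS libraries (-0.94 ± 0.06). Of 26 NRF2 and redox genes 11 were higher, 6 lower and 9 did not pass, beside 28.7% of all genes higher and 27.2% lower. The factor NFE2L2 had 617, 635 and 679 CPM in the CEL libraries, against 259, 254 and 231 CPM in the LPS libraries (1.38 ± 0.06). Malic enzyme ME1 had 188, 211 and 219 CPM in the CEL libraries, against 60.7, 60.4 and 63.4 CPM in the LPS libraries (1.75 ± 0.07). Metallothioneins, zinc-binding proteins named after their values were seen, made up 5 of the 6 lower members, at -1.39 (MT1G) to -0.54 (MT1E). Of 24 apoptosis and p53 genes 11 were higher, 6 lower and 7 did not pass, with the death-promoting BCL2L11 at 42.9 ± 2.06 CPM in CEL and 15.6 ± 0.869 CPM in LPS (1.46 ± 0.09), the survival gene BCL2A1 at 79.2 ± 4.73 CPM in CEL and 36.9 ± 2.09 CPM in LPS (1.101 ± 0.10), the p53-inducible RRM2B at 289 ± 13.6 CPM in CEL and 114 ± 9.29 CPM in LPS (1.35 ± 0.08) and the death receptor TNFRSF10B at 87.5 ± 2.63 CPM in CEL and 39.0 ± 0.954 CPM in LPS (1.16 ± 0.07).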
